A study of Mus musculus with 2 samples.

Results

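The cadherins and protocadherins are calcium-dependent adhesion proteins of the cell surface. They were taken here as every feature whose symbol is Cdh or Pcdh followed by a digit, or begins with Pcdha, Pcdhb or Pcdhg. Cdh2 and Cdh5 were not included, and 91 of the 28001 features met the rule. These were 4 type I classical cadherins, 12 type II classical cadherins, 5 other Cdh genes, 4 delta1 and 5 delta2 protocadherins, 3 other single protocadherins, and 14 Pcdha, 22 Pcdhb and 22 Pcdhg genes of the clustered group. Each had at least 1 molecule counted. The 91 features carry 89 symbols, because Pcdha11 and Pcdhga8 each stand on 2 rows. One Pcdhga8 row has the identifier ENSMUSG00000023036, which GENCODE M21 names Pcdhgc4, and it is called Pcdhgc4 below.

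The data are single-cell RNA counts of C57BL/6J mouse forebrain on postnatal day 0, with 1 library from Gmnc-/- animals and 1 from wild-type littermates. Each library is a pool of 4 animals of 2 litters, with lateral cortex, dorsal cortex and hippocampus taken from both hemispheres, and a cell cannot be traced to its animal. Gmnc encodes a nuclear regulator needed for multiciliated cells, and the title of the series concerns Cajal-Retzius cells that carry p73. The labels name no Cre, no floxed allele and no reporter, but the feature Stop-Ai9 had 20876 UMIs in the Gmnc-/- library and 45777 in the wild-type library. With 1 library per genotype there was no test: every difference is between these 2 libraries, and intervals, at 95% and in parentheses, cover counting error only.

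Classical cadherins bind the same or a related cadherin on the facing cell and are tied to actin through catenins. Type II cadherins and delta protocadherins are known for marking sets of neurons, layers and nuclei of the developing forebrain in combinations. The clustered protocadherins are transcribed from alternative promoters, so that each neuron carries its own small set of isoforms, and in the Pcdha and Pcdhg clusters every first exon is spliced to shared last exons.

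The Gmnc-/- library held 155482657 UMIs (unique molecular identifiers, 1 for each captured molecule) in 27663 barcodes, and the wild-type library 88905819 UMIs in 13033 barcodes. Filtering left 20853 Gmnc-/- cells (median 4477 UMIs) and 10592 wild-type cells (median 6022 UMIs). Called doublets were 20.3% of the Gmnc-/- and 3.16% of the wild-type cells that passed the filter. The expected rates were 22.1% and 10.4% of barcodes, and the score thresholds, set in each library alone, were 0.306 and 0.348. The wild-type calls were thus further below the expected rate, and the part of this in the differences between libraries was not tested. In both libraries 85 barcodes occurred, 53 of them among kept cells. Gmnc had 86 UMIs in the Gmnc-/- library and 66 in the wild-type library. The sources used here do not say whether the deletion takes in the counted end of the transcript, so this does not check the label. Trp73 of the same programme had 14 UMIs in the Gmnc-/- library and 439 in the wild-type library, and ependymal-like cells numbered 0 and 132. Clusters are named by leading genes and by marker lists, as "-like", and no animal-level spread could be had.

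Cadherins and protocadherins divided the neurons of both libraries in nearly the same way. Of 19 neuron clusters, 18 had at least 100 cells in each library. Across those 18 clusters, 24 members reached 20 CPM (UMIs of the gene over all UMIs of those cells, in the usual counts-per-M unit) in at least 1 cluster, and 20 of the 24 had the same highest cluster of the 18 in both libraries. The rank correlation of a member's levels between the Gmnc-/- and the wild-type library, over the 18 clusters, was 0.43 at the lowest (Cdh9), 0.89 at the median and 0.99 at the highest (Cdh4). The libraries share the clustering in these values, which are a description. The members themselves were not among the genes used to cluster.

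**Figure D1:**
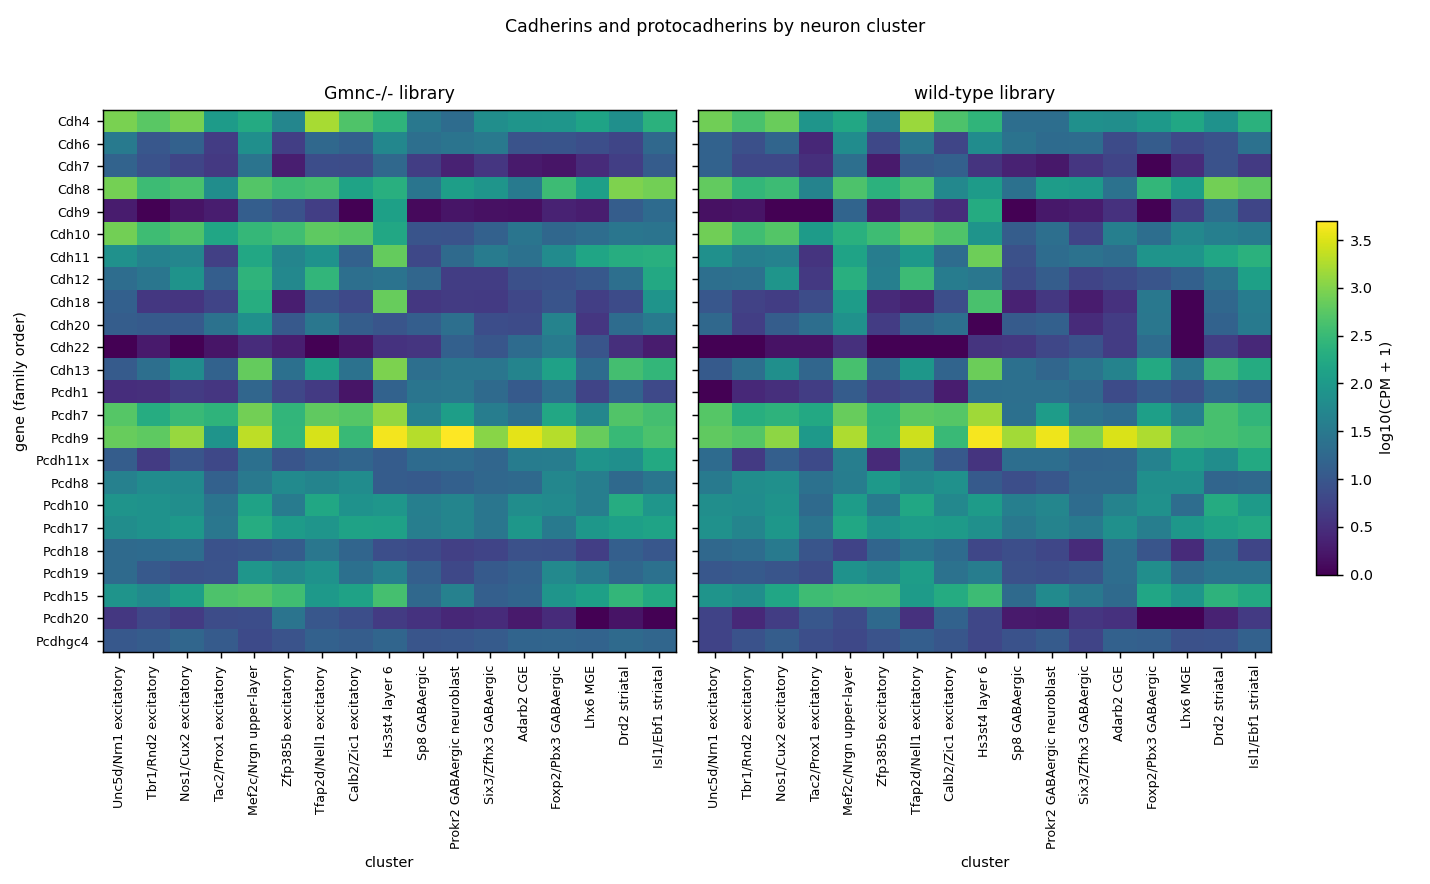
Level of 24 members (rows, by family) in 17 of the 19 neuron clusters (columns), as log10(CPM + 1), in the Gmnc-/- library on the left and the wild-type library on the right. Cdh4 peaks in the Tfap2d/Nell1 column on both sides, Pcdh9 is brightest in the Prokr2 and Hs3st4 columns, and the Hs3st4 layer 6 column, with 203 Gmnc-/- and 73 wild-type cells, is bright for Cdh11, Cdh13, Cdh18 and Pcdh7.

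Among type I cadherins, Cdh4 (R-cadherin; chr2:179442431-179899373 of mm10, plus strand) was the one that reached 5 CPM over all cells, and it was highest in some of the excitatory clusters. It had 1643 CPM (1580 to 1709) in the Tfap2d/Nell1 excitatory-like cluster of the Gmnc-/- library and 1398 CPM (1319 to 1480) in that of the wild-type library. The Unc5d/Nrn1 cluster of migrating young excitatory-like neurons followed with 901 and 795 CPM, while the Zfp385b excitatory-like cluster had 49.2 and 41.2 CPM. Near the low end, the Prokr2 GABAergic neuroblast-like cluster had 19.1 CPM (14.6 to 24.5) in the Gmnc-/- library and 20.9 CPM (13.9 to 30.2) in the wild-type library, so that the intervals of these 2 low values overlap. In erythroid-like cells, which are not known to make these proteins and serve as the background within each library, Cdh4 had 45.7 CPM in the Gmnc-/- and 11.98 CPM in the wild-type library.

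The type II cadherins differed in the neuron clusters where they were high. Cdh8 (chr8:99024471-99416471, minus strand) was highest in the Drd2 striatal-like cluster, with 971 CPM (926 to 1017) in the Gmnc-/- library and 827 CPM (766 to 892) in the wild-type library. The Unc5d/Nrn1 cluster (840 and 648 CPM) and the Isl1/Ebf1 striatal-like cluster (805 and 633 CPM) came next. Both striatal-like clusters and the young excitatory cluster were thus high for Cdh8, while the Sp8 GABAergic-like cluster was lowest with 26.4 CPM in the Gmnc-/- library and 22.9 CPM in the wild-type library. Erythroid-like cells had 32.5 and 10.5 CPM of Cdh8, so that this lowest cluster was below the background in the Gmnc-/- library.

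Cdh10 was an excitatory gene in these cells. Its level was 809 CPM (782 to 835) in the Unc5d/Nrn1 cluster of the Gmnc-/- library and 798 CPM (762 to 836) in that of the wild-type library, and these intervals overlap. The Prokr2 neuroblast-like cluster had 7.81 CPM in the Gmnc-/- and 21.6 CPM in the wild-type library, where erythroid-like cells had 28.9 and 7.99 CPM. After each cell was thinned to 2000 UMIs, 42.0% (40.7 to 43.4) of 5476 Gmnc-/- excitatory-like neurons had a Cdh10 UMI, and 41.4% (39.4 to 43.4) of 2377 wild-type ones. In GABAergic-like neurons the share was 2.42% (1.92 to 3.01) in the Gmnc-/- library and 3.03% (2.14 to 4.15) in the wild-type library. The erythroid-like share was 3.49% (1.97 to 5.69) and 2.06% (0.671 to 4.74), with median depths before thinning of 4744 and 6389 UMIs, where the excitatory-like neurons used had 4693 and 6033. The GABAergic-like share was below the erythroid-like one in the Gmnc-/- library, with overlapping intervals, and is not told apart from background there. That background is itself high in neuronal RNA. The broad excitatory markers summed to 183 CPM in Gmnc-/- and 71.4 CPM in wild-type erythroid-like cells, and the GABAergic ones to 252 and 96.8 CPM. In the wild-type library the GABAergic-like share was above the erythroid-like one, with overlapping intervals. The Lhx6 cluster of that library, which resembles interneurons of the medial ganglionic eminence, had 52.8 CPM of Cdh10 (19.9 CPM in the Gmnc-/- library). Without thinning the excitatory-like shares were 56.3% and 59.6%.

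Cdh12 and Cdh18 are type II cadherins too. The Tfap2d/Nell1 cluster had 274 CPM (248 to 302) of Cdh12 in the Gmnc-/- library and 345 CPM (306 to 387) in the wild-type library, and the Mef2c/Nrgn cluster had 252 CPM (236 to 269) and 212 CPM (198 to 227). The Gmnc-/- value was thus the lower one in the first cluster and the higher one in the second, with intervals that do not overlap in either. Cdh18 was highest in the Hs3st4 layer 6-like and the Mef2c/Nrgn upper-layer-like cluster. It had 701 CPM (654 to 750) in the Gmnc-/- and 432 CPM (369 to 502) in the wild-type Hs3st4 cluster, and 204 CPM (190 to 219) and 109 CPM (99.2 to 120) in the Mef2c/Nrgn cluster. The Isl1/Ebf1 cluster, with 80.7 and 34.7 CPM, was the next highest, and in all 3 clusters the Gmnc-/- library was the higher. Clusters with less Cdh18 went both ways. The Gmnc-/- library was the lower one in Foxp2/Pbx3 (8.22 and 29.3 CPM) and in Drd2 (5.99 and 16.1 CPM).

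**Figure D2:**
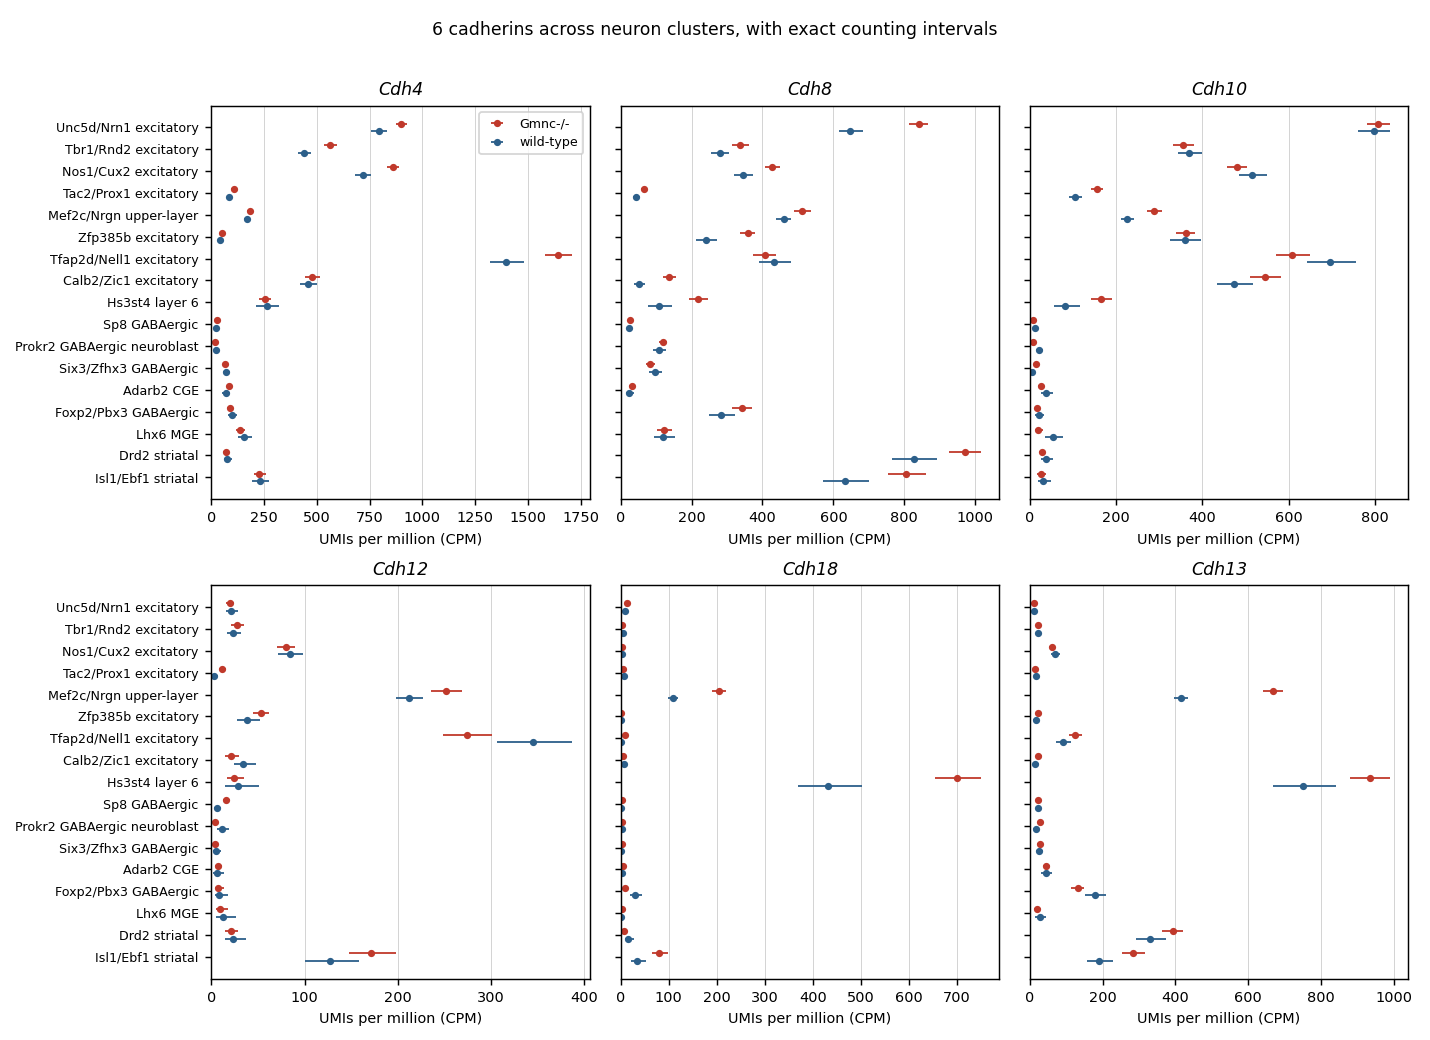
Level (CPM, linear axis from 0) of Cdh4, Cdh8, Cdh10, Cdh12, Cdh18 and Cdh13 in 17 of the 19 neuron clusters, Gmnc-/- in red above wild-type in blue, with bars for exact Poisson intervals. The rank correlation between the libraries over the 18 larger clusters was 0.63 for Cdh18 and 0.87 or more for the other 5. The Cdh18 points of both the Hs3st4 and the Mef2c/Nrgn cluster lie higher in the Gmnc-/- library (701 against 432 and 204 against 109 CPM). Those of the Foxp2/Pbx3 and the Drd2 cluster lie lower in it (8.22 against 29.3 and 5.99 against 16.1 CPM).

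The Hs3st4 layer 6-like cluster carried several further members. Cdh9, a type II cadherin known in mouse for synapses between dentate mossy fibres and CA3 neurons, had 125 CPM (105 to 146) there in the Gmnc-/- library and 190 CPM (149 to 239) in the wild-type library. In the 18 larger neuron clusters Cdh9 reached at most 18.3 CPM in the Gmnc-/- library and 21.1 CPM in the wild-type library, and its highest cluster differed between them. Cdh11, known from mesenchyme and bone, had 658 CPM (612 to 705) in the Gmnc-/- and 776 CPM (691 to 869) in the wild-type Hs3st4 cluster. Cdh11 was also 215 and 226 CPM in the Isl1/Ebf1 striatal-like cluster, where the libraries did not differ beyond counting error. Cdh13 (T-cadherin), which is held by a lipid anchor and has no part inside the cell, had 934 CPM (880 to 990) in the Gmnc-/- and 751 CPM (667 to 842) in the wild-type Hs3st4 cluster, and 667 CPM (641 to 694) and 415 CPM (395 to 435) in the Mef2c/Nrgn cluster.

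Of the 24 members, 3 had their highest of the 18 larger clusters in the GABAergic-like class, and these were Cdh22, Pcdh9 and Pcdh1. Striatal-like neurons are a class of their own here and are not in this count. They too carry the 7 broad markers of GABAergic neurons, which summed to 1469 CPM in the Gmnc-/- and 1356 CPM in the wild-type library. Cdh22, a type II cadherin, had 31.0 CPM (22.9 to 40.97) in the Foxp2/Pbx3 GABAergic-like cluster of the Gmnc-/- library and 19.5 CPM (11.2 to 31.7) in that of the wild-type library. In excitatory-like clusters such as Unc5d/Nrn1 and Tfap2d/Nell1, no Cdh22 UMI was counted in either library. Cdh6 and Cdh20, both type II, were low in most neuron clusters. Their highest of the 18 larger clusters was Mef2c/Nrgn, where Cdh6 had 68.5 and 61.3 CPM and Cdh20 had 69.9 and 74.1 CPM in the Gmnc-/- and the wild-type library.

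Of the delta1 protocadherins, Pcdh9 was highest, among the 18 larger clusters, in migrating GABAergic-like neurons. Pcdh9 (chr14:93013410-93890679, minus strand) had 4855 CPM in the Gmnc-/- Prokr2 neuroblast-like cluster and 4076 CPM in the wild-type one. The smaller Hs3st4 layer 6-like cluster had 4246 CPM of Pcdh9 in the Gmnc-/- and 4467 CPM in the wild-type library, so that it was above the Prokr2 cluster in the wild-type library and below it in the Gmnc-/- library. Thinned cells of the Prokr2 cluster had a Pcdh9 UMI in 97.5% (96.1 to 98.5) of 762 Gmnc-/- cells and 98.7% (96.3 to 99.7) of 233 wild-type cells. The lowest cluster, Tac2/Prox1 excitatory-like, had 82.1 CPM (72.4 to 92.7) in the Gmnc-/- library and 97.9 CPM (84.3 to 113) in the wild-type library. For Pcdh9 the erythroid-like background was 247 CPM in the Gmnc-/- library and 84.4 CPM in the wild-type library, which is at or above that lowest neuron cluster in the Gmnc-/- library.

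Pcdh7, a delta1 member, had 1245 CPM in the Gmnc-/- and 1480 CPM in the wild-type Hs3st4 cluster, and 812 and 699 CPM in the Mef2c/Nrgn cluster. Its lowest cluster was Adarb2, which resembles interneurons of the caudal ganglionic eminence, with 21.4 CPM in the Gmnc-/- and 19.1 CPM in the wild-type library. Pcdh11x, an X-linked delta1 gene, had 174 CPM in the Isl1/Ebf1 striatal-like cluster of the Gmnc-/- library and 177 CPM in that of the wild-type library. Pcdh1 was highest in the Prokr2 cluster, with 28.4 CPM (22.9 to 34.9) in the Gmnc-/- and 21.6 CPM (14.5 to 31.1) in the wild-type library, so its intervals overlap.

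Some delta2 protocadherins are known to bind the WAVE actin regulators. Pcdh10, a delta2 member, was highest in the Drd2 striatal-like cluster, with 197 CPM in the Gmnc-/- and 189 CPM in the wild-type library. Pcdh8, known as arcadlin and induced by neuronal activity, had 27.9 CPM (26.9 to 28.9) over all kept Gmnc-/- cells and 24.5 CPM (23.5 to 25.6) over the wild-type ones. Pcdh17 peaked in Mef2c/Nrgn neurons of the Gmnc-/- library (192 CPM, against 158 CPM in the wild-type library) and in Isl1/Ebf1 neurons of the wild-type library (138 CPM in the Gmnc-/- library, against 172 CPM). Pcdh19, the X-linked gene mutated in a human epilepsy that mainly affects girls, had 85.5 CPM in Gmnc-/- and 76.8 CPM in wild-type Mef2c/Nrgn neurons, and 76.0 and 115 CPM in Tfap2d/Nell1 neurons. Pcdh17, Pcdh18, Pcdh19 and Cdh9 were the 4 members whose highest cluster differed between the libraries.

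Pcdh15 and Pcdh20 completed the neuronal set. Pcdh15, part of the tip link of inner ear hair cells, had 518 CPM in Gmnc-/- and 400 CPM in wild-type Mef2c/Nrgn neurons, and 458 and 352 CPM in the Tac2/Prox1 cluster. Pcdh20 was highest in the Zfp385b excitatory-like cluster, with 25.1 CPM (19.7 to 31.5) in the Gmnc-/- library and 17.5 CPM (10.7 to 27.1) in the wild-type library, where the intervals overlap.

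Pcdh8, Pcdh17, Pcdh20 and Pcdh9 lie in this order along chromosome 14, and the last 3 differed in their highest neuron cluster, so the 250 bases before their starts are shown. They are RefSeq windows of GRCm38.p6, which is mm10, and each ends at the gene start that GENCODE M21 also gives. They are at chr14:79771313-79771562 (minus strand) for Pcdh8, chr14:84443313-84443562 (plus) for Pcdh17, chr14:88471397-88471646 (minus) for Pcdh20 and chr14:93890680-93890929 (minus) for Pcdh9. Capitals mark CCAAT or its reverse complement ATTGG, and TATAAA or TTTATA.
Pcdh8: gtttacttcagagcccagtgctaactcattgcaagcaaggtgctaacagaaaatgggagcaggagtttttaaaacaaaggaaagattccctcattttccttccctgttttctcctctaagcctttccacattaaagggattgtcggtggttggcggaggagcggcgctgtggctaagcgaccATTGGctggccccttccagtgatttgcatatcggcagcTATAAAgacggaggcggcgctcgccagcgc
Pcdh17: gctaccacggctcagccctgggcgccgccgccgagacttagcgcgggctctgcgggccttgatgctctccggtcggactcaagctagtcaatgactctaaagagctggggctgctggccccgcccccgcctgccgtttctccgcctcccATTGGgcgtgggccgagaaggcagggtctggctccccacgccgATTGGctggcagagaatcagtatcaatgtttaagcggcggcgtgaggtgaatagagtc
Pcdh20: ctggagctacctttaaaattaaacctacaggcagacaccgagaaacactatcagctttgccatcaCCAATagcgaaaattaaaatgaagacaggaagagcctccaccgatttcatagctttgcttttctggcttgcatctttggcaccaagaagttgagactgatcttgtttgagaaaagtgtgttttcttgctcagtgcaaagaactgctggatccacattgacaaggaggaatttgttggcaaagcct
Pcdh9: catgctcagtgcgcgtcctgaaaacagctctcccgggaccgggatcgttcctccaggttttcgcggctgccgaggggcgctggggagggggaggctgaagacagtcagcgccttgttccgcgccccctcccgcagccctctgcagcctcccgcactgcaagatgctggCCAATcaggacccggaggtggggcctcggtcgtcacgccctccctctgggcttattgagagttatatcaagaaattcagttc

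All 4 windows hold CCAAT on one or the other strand, as do 33.9% of all 32851 windows of this length in the table. Pcdh17 has 2 such matches, 1 GGGCGG (both strands searched; 32.7% of windows) and 21 CG dinucleotides. TATAAA occurs only in the window of Pcdh8 among the 4, and in 12.4% of all windows. The CG count is 11 for Pcdh8, 3 for Pcdh20 and 18 for Pcdh9, against a median of 6, and GC content is 51.2%, 64.8%, 42.4% and 63.6% in the order Pcdh8, Pcdh17, Pcdh20 and Pcdh9. None holds CANNTG, which 66.2% of windows hold. These letters are a description of the windows, and 22 member symbols had a window in the table.

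Some members varied together over the 18 neuron clusters, which share libraries and differ in depth. Cdh8 and Cdh11 had a rank correlation of 0.82 in the Gmnc-/- library and 0.86 in the wild-type library. Cdh10 and Pcdh1 were among the most opposed, at -0.81 and -0.85, and Cdh22 and Pcdh1 went together at 0.78 and 0.77. Cdh4 and Cdh10 gave 0.76 and 0.77. Cdh10 and Cdh4 thus tended to be high where Pcdh1 and Cdh22 were low, with -0.80 and -0.59 for Cdh4 and Cdh22. These pairs were picked for their size from all pairs of the 24 members. Cdh22 was near 0 in many clusters, with a median of 0.97 CPM in the Gmnc-/- and 0.53 CPM in the wild-type library, so its ranks are uncertain.

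Glia and progenitors shared members with neurons at other levels. In oligodendrocyte lineage-like cells Pcdh11x had 539 CPM (519 to 559) in the Gmnc-/- library and 476 CPM (454 to 499) in the wild-type library, above its highest neuron cluster. Pcdh15 had 955 CPM (929 to 981) in the Gmnc-/- and 971 CPM in the wild-type library in those cells, with overlapping intervals. Cdh20 had 537 and 404 CPM. All 3 genes were thus higher in the oligodendrocyte lineage than in any of the 18 larger neuron clusters. In astroglia-like cells Pcdh10 had 312 CPM (305 to 319) in the Gmnc-/- library and 236 CPM (229 to 243) in the wild-type library. Intermediate progenitor-like cells, which give rise to excitatory neurons, already had 394 CPM (379 to 411) of Cdh10 in the Gmnc-/- and 324 CPM (308 to 341) in the wild-type library.

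In endothelial-like, microglia-like, meningeal fibroblast-like and mural-like cells, other members were measured as well. Pcdh12, an endothelial protocadherin, had 80.7 CPM (69.2 to 93.4) in Gmnc-/- and 60.2 CPM (52.9 to 68.2) in wild-type endothelial-like cells. No Pcdh12 UMI was counted in the excitatory-like neurons of either library: after thinning, 0 of 5476 Gmnc-/- and 0 of 2377 wild-type cells had one, which allows shares of cells with such a UMI of up to 0.0548% and 0.126% at this depth and does not limit the share of cells that express the gene. Cdh23, the tip link partner of Pcdh15 in hair cells, had 42.4 CPM (34.4 to 51.7) in Gmnc-/- and 29.0 CPM (23.4 to 35.5) in wild-type microglia-like cells. In meningeal fibroblast-like cells Cdh1 (E-cadherin, known from epithelia) had 25.4 CPM (16.9 to 36.7) in the Gmnc-/- and 43.9 CPM (35.3 to 54.0) in the wild-type library. Cdh18 had 129 CPM (108 to 152) and 144 CPM (128 to 161) in the same cells. Pcdh18 had 343 CPM in the 53 Gmnc-/- mural-like cells and 447 CPM in the 46 wild-type ones.

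**Figure D3:**
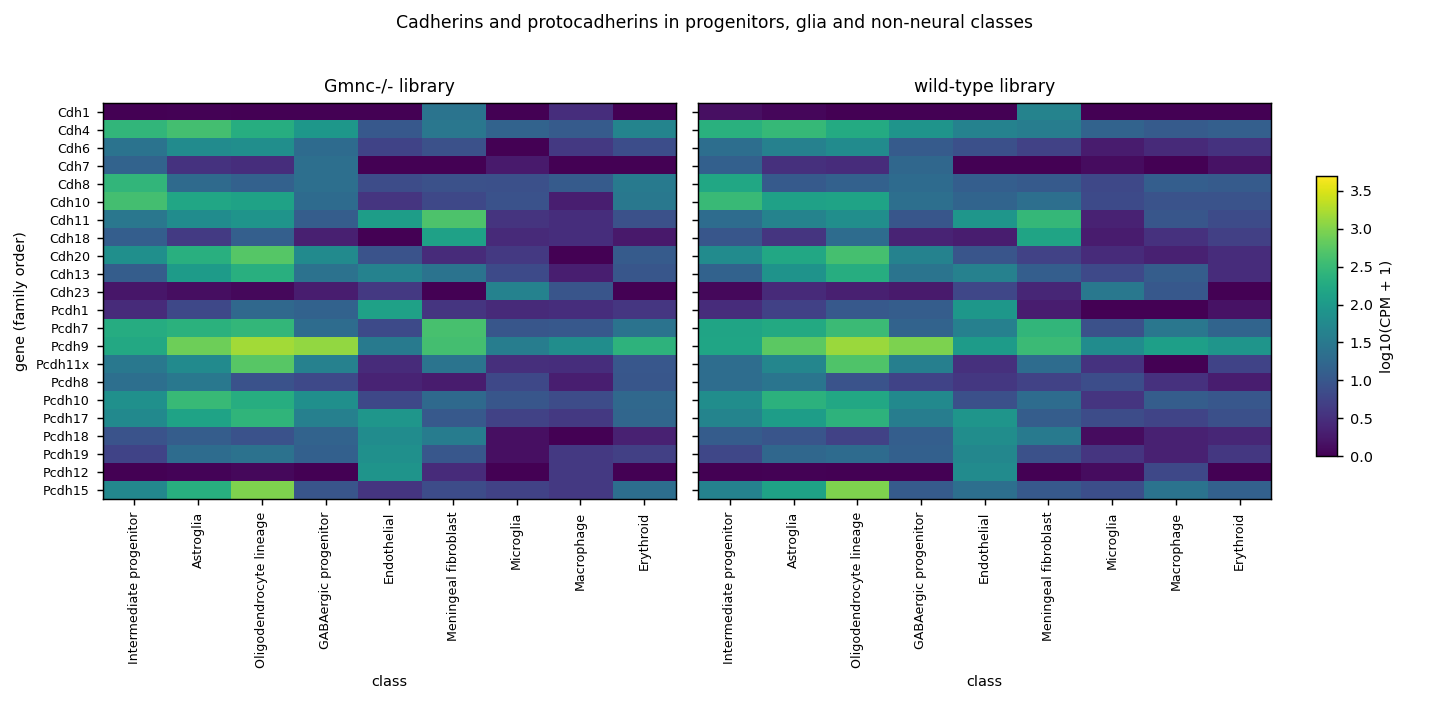
Level of 22 members (rows) in 9 classes of progenitor, glial and non-neural cells (columns), as log10(CPM + 1), in the Gmnc-/- library on the left and the wild-type library on the right. Pcdh12 is brightest in the endothelial-like column of each side (80.7 and 60.2 CPM), and the erythroid-like column is brighter on the left than on the right for Cdh4 (45.7 against 11.98 CPM).

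Over all kept cells, most members were somewhat higher in the Gmnc-/- library. The mean of the libraries reached 5 CPM for 26 members, and 65 stayed below it. Of the 26, 1 was 1.5-fold or more higher in the Gmnc-/- library and 0 were lower, on the scale of log2 ratios with 5 CPM added to each value, which understates the ratio of low genes. Over all 11894 features at that level, 4.06% were higher and 6.19% lower by this rule. The median log2 ratio was 0.26 for the 26 members, with 25 of them above 0, and 0.07 for all features at that level. Among the 26, Pcdhga5, Pcdhga11 and Cdh24 were below 5 CPM in the wild-type library and reached the mean through the Gmnc-/- value alone.

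Cdh8 was the member past 1.5-fold, with 172 CPM (169 to 174) in the Gmnc-/- library and 111 CPM (109 to 114) in the wild-type library, a ratio of 1.54 (1.503 to 1.58) and a log2 ratio of 0.60. Neither Cdh8 nor any other member passed 1.5-fold with a mean over cells, with a looser cell filter, or in male-pattern cells alone (log2 ratio of Cdh8 0.41). Pcdh9 had 1151 CPM in the Gmnc-/- library and 783 CPM in the wild-type library, with a log2 ratio of 0.55. Cdh4 had 286 CPM in the Gmnc-/- and 219 CPM in the wild-type library. These sums over all cells depend on which cells a library holds: excitatory-like neurons were 30.4% of Gmnc-/- and 25.6% of wild-type cells, microglia-like cells 1.62% and 3.24%, and endothelial-like cells 0.815% and 2.19%. Within excitatory-like neurons Cdh8 was 379 CPM (373 to 386) in the Gmnc-/- and 325 CPM (317 to 333.5) in the wild-type library, a smaller ratio of 1.17 (1.13 to 1.21).

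The other abundant members followed within a narrow range. Pcdh15 had 184 CPM in the Gmnc-/- and 143 CPM in the wild-type library, Cdh10 had 185 and 146 CPM, and Pcdh7 had 229 and 191 CPM. Pcdh10, with 126 and 102 CPM, Cdh13, with 102 and 78.7 CPM, and Cdh20, with 96.5 and 73.4 CPM, were alike in this. The smallest ratios were those of Pcdh19, with 20.8 CPM in the Gmnc-/- and 20.1 CPM in the wild-type library, and of Pcdh18, the 1 gene of the 26 that was lower, with 12.6 and 14.4 CPM. Pcdh12, below the level of 5 CPM, had 1.78 CPM in the Gmnc-/- and 3.24 CPM in the wild-type library, while its own class, the endothelial-like cells, was a smaller share of the Gmnc-/- library.

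**Figure D4:**
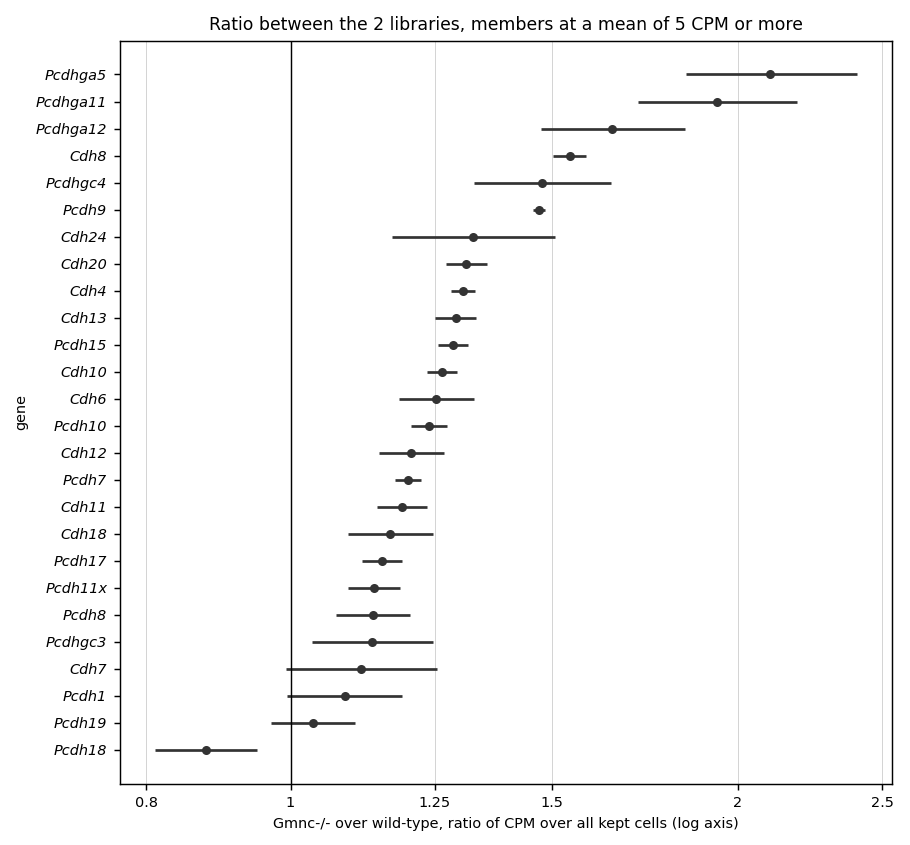
Ratio of the Gmnc-/- to the wild-type library (log axis, no value added) for the 26 members at a mean of 5 CPM or more over all kept cells, with exact conditional intervals. Pcdh18 lies below 1, Cdh8 at 1.54, and Pcdhga5 and Pcdhga11, which are near 5 CPM, at 2.10 and 1.94.

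Long genes were higher in the Gmnc-/- library in general. Features whose gene spans 300 kb or more had a median log2 ratio of 0.27 and those under 10 kb one of -0.17. The 9 members of 300 kb or more had a median of 0.35, the 7 of 100 to 300 kb one of 0.27 (0.22 for all features of that span), the 5 of 30 to 100 kb one of 0.30 (0.17), and the 4 of 10 to 30 kb one of 0.15 (0.03). The single member under 10 kb, Pcdh8, had 0.15. Pcdh9 spans 877 kb. By family, the summed level was 626 CPM in the Gmnc-/- and 474 CPM in the wild-type library for type II cadherins, 1448 and 1035 CPM for delta1, and 279 and 240 CPM for delta2 protocadherins. Most of the delta1 sum was Pcdh9 alone (1151 and 783 CPM), and the median log2 ratio of the 4 delta1 genes was 0.21. Of 30 related genes (catenins, atypical cadherins, calsyntenins, WAVE subunits and regulators of the clustered genes), 28 reached 5 CPM, 0 were 1.5-fold higher and 1 was lower. That gene was Ctnnd1, which encodes p120 catenin, with 13.5 CPM in the Gmnc-/- and 24.1 CPM in the wild-type library; the median log2 ratio of the 28 was 0.35.

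The libraries differ in the sexes of their cells, with 9525 female-pattern and 5360 male-pattern cells in the Gmnc-/- library and 7150 and 1594 in the wild-type library. The part of this in the levels of the X-linked members was not tested. Among female-pattern cells (Xist UMIs, Y-linked genes at 0), Pcdh11x had 56.3 CPM in the Gmnc-/- library and 53.2 CPM in the wild-type library, and among male-pattern cells (the converse) 62.9 and 43.8 CPM. Pcdh19 had 20.7 and 20.8 CPM in the first set and 21.5 and 17.9 CPM in the second. Cdh8 had log2 ratios of 0.61 and 0.41 in the same 2 sets.

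Within classes of 100 or more cells in both libraries, 41 of 277 pairs of a member and a class, at a mean of 5 CPM or more, were past 1.5-fold in either direction, and 12.2% of the pairs of any feature and a class were. Without erythroid-like cells it was 32 of 264 pairs, where 10.3% of all pairs were, so the share of the members is near that of all features. In excitatory-like neurons 1 of 35 members was higher and 0 lower, where 2.58% and 2.85% of all features were. In GABAergic-like neurons 1 of 29 was higher and 0 lower (2.13% and 2.22% of all features), and in striatal-like neurons 2 of 40 were higher and 1 lower (4.89% and 4.75%). The median log2 ratio of the members was 0.02, 0.14 and 0.01 in these 3 classes, against 0.07, 0.05 and 0.03 for all features. The member in excitatory-like neurons was Pcdhga5, with 10.0 CPM (8.94 to 11.2) in the Gmnc-/- and 4.74 CPM (3.78 to 5.88) in the wild-type library. It reached the mean of 5 CPM through the Gmnc-/- value alone. The one in GABAergic-like neurons was Cdh22, with 12.1 and 5.88 CPM.

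Among progenitors and glia, the members' medians stood furthest above those of all features in astroglia-like and intermediate progenitor-like cells. In intermediate progenitor-like cells 2 of 25 were higher and 0 lower (6.12% and 3.53% of all features), and the median log2 ratio was 0.27, against 0.12 for all features. Cdh8 had 275 CPM (262 to 289) there in the Gmnc-/- library and 159 CPM (147 to 171) in the wild-type library, a ratio of 1.74 (1.59 to 1.90). In astroglia-like cells 1 of 22 was higher and 0 lower (3.85% and 3.03%), with 21 of 22 above 0 and a median of 0.37, against 0.14. That gene was Pcdh15, with 209 CPM (203 to 215) in the Gmnc-/- and 134 CPM (129 to 140) in the wild-type library. GABAergic progenitor-like cells had 2 of 22 higher and 0 lower (4.19% and 3.09%), with a median of 0.18, against 0.13. Oligodendrocyte lineage-like cells had 1 of 28 higher and 0 lower (4.88% and 3.14%), with a median of 0.16, against 0.09.

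In endothelial-like and macrophage-like cells several members that were high in neurons were lower in the Gmnc-/- library. Endothelial-like cells had 1 of 22 members higher and 5 lower (4.65% and 6.07% of all features). Of those lower, Pcdh15 and Cdh10 reached the mean of 5 CPM through the wild-type value alone. Pcdh15 had 2.72 CPM in the Gmnc-/- and 21.6 CPM in the wild-type library, and Cdh10 had 2.72 and 14.7 CPM. Pcdh7 had 5.89 CPM (3.14 to 10.1) in Gmnc-/- and 39.5 CPM (33.7 to 46.1) in wild-type endothelial-like cells, Pcdh9 had 31.7 and 108 CPM, and Cdh4 had 9.52 and 43.2 CPM. The member past 1.5-fold higher was Pcdhga5, with 8.16 and 2.21 CPM. Pcdh1, with 130 and 90.4 CPM, and Pcdh19, with 70.2 and 51.1 CPM, did not pass it. The 7 broad markers of excitatory neurons summed to 40.8 CPM in Gmnc-/- and 70.5 CPM in wild-type endothelial-like cells, with 6 of 7 detected in each and Slc17a7 at 0 in both, and the 7 of GABAergic neurons to 52.6 and 66.3 CPM. The part of neuronal RNA in these differences was not tested.

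Macrophage-like cells had 0 of 9 members higher and 5 lower (9.76% and 8.57% of all features), among them Cdh13 with 1.05 CPM in the Gmnc-/- and 11.3 CPM in the wild-type library, and Pcdh7 with 9.43 and 28.0 CPM. The excitatory markers summed to 71.2 and 85.1 CPM and the GABAergic ones to 57.6 and 92.3 CPM in these cells, with 6 of 7 of each list detected in the Gmnc-/- library (Slc17a7 and Slc32a1 at 0) and 7 of 7 in the wild-type library. Their part in the result was not tested. With called doublets kept, the median log2 ratio of the members in macrophage-like cells was 1.03 in place of -0.87, the other direction. That in endothelial-like cells was -0.0011 and changed sign under several settings, among them 0.31 with doublets kept. Microglia-like cells had 1 of 11 higher and 1 lower (11.1% and 4.96%), with a median of 0.02, against 0.16 for all features. Cluster 31 held most of the Gmnc-/- cells of that class (236 of 337), while the wild-type cells were spread over clusters 31 and 36 (176 and 163 of 343).

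Meningeal fibroblast-like cells had 5 of 21 members higher and 3 lower (9.49% and 7.80% of all features). Cdh11 had 460 CPM (421 to 502) in the Gmnc-/- and 291 CPM (268 to 315) in the wild-type library there, and Pcdh7 had 413 and 272 CPM. Those lower were Cdh1, Cdh19 and Cdh10, the last with 5.44 CPM in the Gmnc-/- and 21.5 CPM in the wild-type library. Of those higher, Pcdhga10 (9.97 and 2.93 CPM) and Pcdhga5 (13.6 and 4.39 CPM) reached the mean of 5 CPM through the Gmnc-/- value alone. Cdh19 (2.72 and 7.32 CPM) reached it through the wild-type value alone, and its ratio interval was 0.069 to 1.31. The filter thus sets these counts in part, and they are not read as a result. In these cells the excitatory markers summed to 65.3 and 73.6 CPM and the GABAergic ones to 94.3 and 98.0 CPM, with all 7 of each detected, and their part was not tested. In erythroid-like cells, the background class, 9 of 13 members were higher and 0 lower, but 43.8% of all features were higher and 4.93% lower there, and the excitatory markers summed to 183 CPM in the Gmnc-/- and 71.4 CPM in the wild-type library. The whole class thus differed between the libraries, and the difference of its members between them is not read further.

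The clustered protocadherins lie together on chromosome 18. By GENCODE M21 the last exon of all 14 Pcdha genes, and of all 21 Pcdhg genes with annotated exons, overlaps that of another gene of the cluster, so that counts of single Pcdha and Pcdhg genes are uncertain. Only 2 of the 22 Pcdhb genes have such an overlap. The sources used here do not say how reads of shared exons were assigned or whether some were left out, so summed levels are given first. The sum over Pcdha was 12.5 CPM (11.9 to 13.2) in the Gmnc-/- and 9.56 CPM (8.89 to 10.3) in the wild-type library, a ratio of 1.31 (1.20 to 1.44). The sum over Pcdhb was 38.3 CPM (37.1 to 39.5) and 32.0 CPM (30.8 to 33.3), a ratio of 1.20 (1.14 to 1.26).

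The sum over Pcdhg was 94.9 CPM (93.1 to 96.8) in the Gmnc-/- library and 66.2 CPM (64.5 to 68.0) in the wild-type library, a ratio of 1.43 (1.39 to 1.48). Across the 19 neuron clusters the Pcdhg sum lay between 78.2 and 128 CPM in the Gmnc-/- library and between 61.3 and 113 CPM in the wild-type library. Its ratio was above 1 in all 19, that of the Pcdhb sum in 12 and that of the Pcdha sum in 8. The interval of the Pcdhg ratio took in 1 in many clusters, such as Sp8 (0.90 to 1.32) and Drd2 (0.89 to 1.49). It lay above 1 in others, such as Mef2c/Nrgn (1.17 to 1.64). The clusters come from the same 2 libraries and are not replicates. The Pcdha sum ranged from 9.33 CPM (Calb2/Zic1) to 46.3 CPM (Hs3st4) in the Gmnc-/- library. In astroglia-like cells the Pcdhg sum was 105 CPM in the Gmnc-/- and 70.8 CPM in the wild-type library, and the Pcdha sum was 2.004 and 1.79 CPM.

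Single Pcdhg genes differed in how far they went. Pcdhga5 had 8.07 CPM in the Gmnc-/- and 3.84 CPM in the wild-type library over all cells, a ratio of 2.10 (1.84 to 2.40). Pcdhga11 had 8.68 and 4.49 CPM, and Pcdhga12 had 9.56 and 5.81 CPM. Pcdhgc3, whose product also takes part in Wnt signalling, had 10.5 and 9.29 CPM, a ratio of 1.13 (1.03 to 1.247). Pcdhgc4, known in mouse for the survival of neurons, had 9.70 and 6.57 CPM, and its log2 ratio was above 0 in 9 of 9 classes where it reached a mean of 5 CPM. Pcdhga5, Pcdhga11 and Pcdhga12 were above 0 in 7 of 7 such classes each. A class could reach that mean through a high Gmnc-/- value alone. Pcdhga5 did so in endothelial-like cells, with 8.16 CPM in the Gmnc-/- and 2.21 CPM in the wild-type library. The filter thus sets these counts in part, and they are not read as a result. The most frequent genes elsewhere were Pcdha11 (ENSMUSG00000102206), with 3.90 and 2.74 CPM, and Pcdhb7, with 5.91 CPM in the Gmnc-/- and 3.75 CPM in the wild-type library. Pcdhb17 had 3.78 and 3.95 CPM, Pcdhb19 had 4.34 and 3.03 CPM, Pcdha9 had 1.24 and 1.20 CPM, and Pcdha12 had 1.39 and 0.997 CPM.

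**Figure D5:**
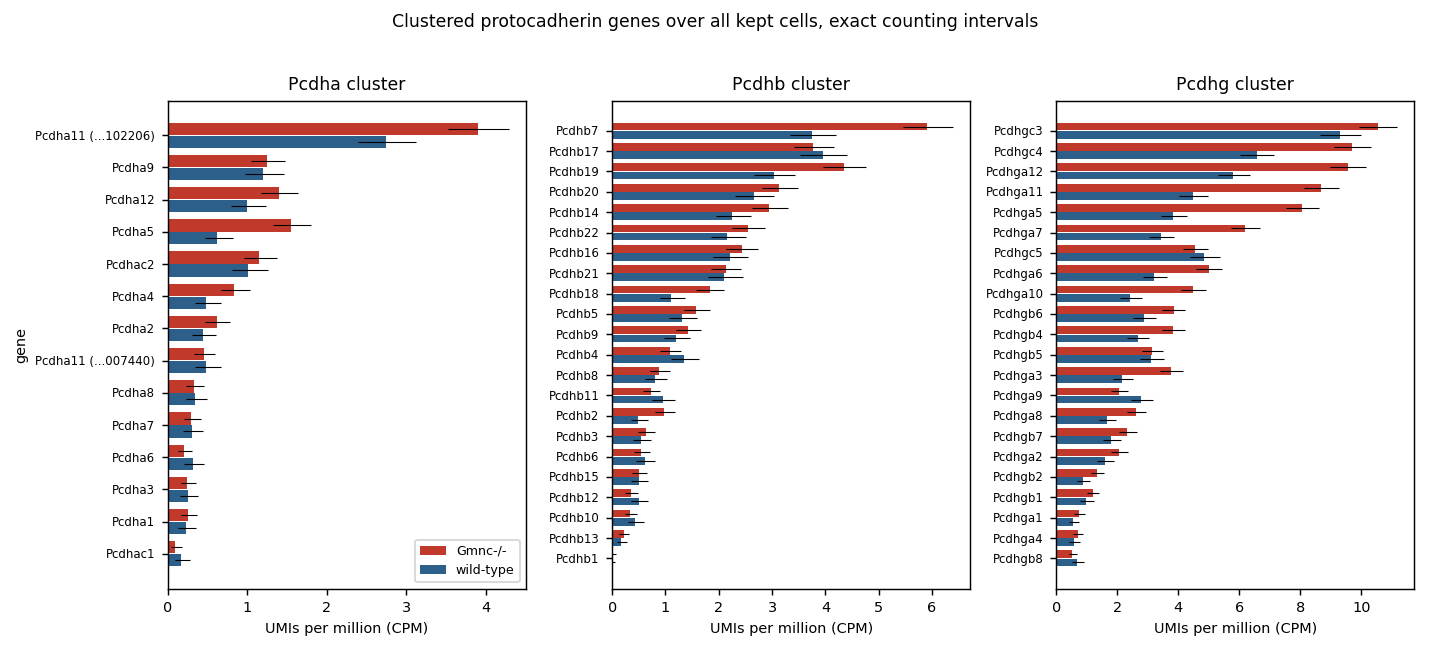
Level over all kept cells (CPM, linear axes from 0, which differ between panels) of the 14 Pcdha, 22 Pcdhb and 22 Pcdhg genes, Gmnc-/- in red above wild-type in blue, with exact Poisson intervals. Pcdhga5, Pcdhga11 and Pcdhga12 show the widest gaps of the right panel (8.07 against 3.84, 8.68 against 4.49 and 9.56 against 5.81 CPM), while the bars of Pcdhgc3 and Pcdhb17 are close.

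Molecules of the clustered genes were also counted neuron by neuron. At least 1 Pcdhg UMI was found in 32.4% of 11483 Gmnc-/- neurons and 30.02% of 5137 wild-type neurons, before thinning. Of the 381 Gmnc-/- neurons with exactly 2 Pcdhb UMIs, 34.1% (29.4 to 39.1) had both from the same gene, and of 185 wild-type neurons 39.5% (32.4 to 46.9). The sum of the squared shares of the genes over all neurons, for comparison, was 8.03% in the Gmnc-/- and 7.77% in the wild-type library. For Pcdhg the same-gene share was 24.1% (21.02 to 27.5) of 700 Gmnc-/- neurons and 16.4% (12.4 to 21.1) of 298 wild-type neurons, with sums of squared shares of 6.99% and 6.61%. For Pcdha it was 42.0% (31.1 to 53.5) of 81 and 35.5% (23.7 to 48.7) of 62, with 15.3% and 13.6%. The part that differences between neuron types or errors in molecular tags have in these shares was not tested.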

How the data were processed

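The deposited files hold raw UMI counts per gene and barcode of each library, made with Next GEM Single Cell 3' v3.1 chemistry per the labels and, per the submitters' processing notes, with Cell Ranger 7.1.0 and mm10. The sources used here name no further filter, and every barcode has 500 UMIs or more. Kept cells had at least 1000 UMIs, less than 10% of them mitochondrial, and Scrublet (scanpy 1.11.5; each library alone, expected rate 0.8% per 1000 barcodes) marked doublets, which were removed.

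Both libraries were clustered together (2000 variable genes, 30 components, 15 neighbours, leidenalg 0.10.2, resolution 2) without the members, the Gmnc programme and sex-linked genes. Of 47 clusters, 5 were counted as unnamed. Clusters 25 and 45 did not reach the score minimum of 0.8. Clusters 24, 38 and 41 scored best for the thalamic neuron, intermediate progenitor and Cajal-Retzius lists, but these names were set aside. The other clusters took the best-scoring marker list, and neuron-named clusters with cycling genes at 300 CPM or more were counted as progenitors. The study's own cell names may differ from these rebuilt ones, and names and score minimum were set with the data known.

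For each library and class, counts were summed and set against their total (CPM), 1 count per molecule and not divided by length. Log2 ratios are Gmnc-/- over wild-type with 5 CPM added. Intervals are exact Poisson, Clopper-Pearson or conditional at 95%. Shares were taken after thinning to 2000 UMIs, which left out 2913 Gmnc-/- and 1841 wild-type cells. The members, the lists and the rule for named genes (the 20 highest over all cells, the most specific per neuron cluster and class, those past 1.5-fold, the 3 highest per clustered group) were chosen with earlier results of these data known; other genes named were chosen after their values were seen. Levels in 2 neuron clusters are not reported here, though counts include them. The calculation was tested on simulated data. GENCODE M21, SciPy 1.17.1, NumPy 2.4.6 and pandas 2.3.3 were used.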

Additional observations from a re-analysis of the deposited data

How the results depend on the processing

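No paired analysis was possible because each genotype has 1 library. The count of members past 1.5-fold over all cells (1) was 4 with 1 CPM added (6.10% of all features higher, 8.47% lower), 2 with the stricter filter of 2000 UMIs and 5% mitochondrial (5.45% and 6.42%), 2 in female-pattern cells (3.96% and 6.58%), 2 with doublets kept (4.22% and 5.77%), and 0 in male-pattern cells (4.35% and 4.96%), with a mean over cells (2.53% and 3.72%) or with the looser filter of 500 UMIs and 20% mitochondrial (3.82% and 5.75%). The median log2 ratio of the members over all cells (0.26) was 0.083 over all features with 1 or more UMIs, 0.34 with the stricter filter and 0.21 with a mean over cells. The pairs of member and class past 1.5-fold (41 of 277) were 72 of 277 with 1 CPM added, 21 of 135 in male-pattern cells, where 5 classes had enough cells, and 79 of 300 with doublets kept. The ratio of the summed Pcdha level was 1.5 and that of Pcdhb 1.33 with the stricter filter, that of Pcdhb 1.26 in female-pattern cells and that of Pcdhg 1.38 in male-pattern cells. The shares with a Cdh10 UMI in excitatory-like neurons were 56.3% in the Gmnc-/- and 59.6% in the wild-type library without thinning. Of the 120 alternatives to class medians, 13 changed sign. With median-of-ratios scaling the median was -0.021 in excitatory-like and -0.079 in microglia-like cells; over all features it was -0.017 in meningeal fibroblast-like and -0.020 in striatal-like cells. A mean over cells gave 0.20 in endothelial-like and -0.48 in microglia-like cells, and female-pattern cells -0.076 in striatal-like cells. Resolution 1 gave 0.0021 in endothelial-like and -0.0070 in oligodendrocyte lineage-like cells, clustering with the members 0.098 in endothelial-like cells, and doublets kept 0.31 in endothelial-like, 1.03 in macrophage-like and -0.0065 in striatal-like cells. Among single genes over all cells, 18 values changed sign. A mean over cells gave -0.083 for Cdh18, -0.013 for Pcdh11x, -0.051 for Pcdh19, -0.092 for Pcdh8, -0.0054 for Pcdha9 and -0.045 for Pcdhgc3. Male-pattern cells gave -0.17 for Cdh18, 0.10 for Pcdh18, -0.076 for Pcdh8, -0.018 for Pcdha12 and -0.0030 for Pcdha9, and female-pattern cells -0.011 for Pcdh19, -0.042 for Pcdha9 and 0.024 for Pcdhb17. Pcdhb17 was 0.021 with the stricter filter and 0.0015 with doublets kept, and the looser filter gave -0.022 for Pcdh19 and -0.0033 for Pcdha9. The cause of these changes was not tested. Members with the same highest cluster in both libraries (20 of 24) were 20 of 22 and 20 of 25 at resolutions 1 and 3, 18 of 25 with a mean over cells, 18 of 23 when clustering with the members, and 16 of 21 with the stricter filter. Depth limits the clustered genes, most of which stayed below 5 CPM, and classes of about 150 cells.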

Other observations

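Ependymal-like cells, which line the ventricles and carry cilia, were counted in the wild-type library alone (132 cells), so no comparison could be made. In them Cdh4 had 195 CPM, Pcdh7 195 CPM, Pcdh9 135 CPM, Pcdh10 118 CPM and Cdh8 76.2 CPM. A cluster led by Reln and Gnrh1, with 72 Gmnc-/- and 85 wild-type cells, scored best for the Cajal-Retzius marker list (score 5.44). That name was set aside because the cluster was judged to mix cells. Pcdh15 had 1044 CPM there in the Gmnc-/- library and 240 CPM in the wild-type library, and Cdh9 had 153 and 21.1 CPM. No cause of these values was tested.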
